A study of Drosophila melanogaster with 66 samples.

Results

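The comparison described here sets males whose insulin-producing brain cells were targeted for ablation against their non-ablated brothers. It uses 12 of the 66 arrays of the series, chosen by their labelled sex, generation and genotype: 3 arrays of ablated males and 9 arrays of brothers, 3 for each of 3 sibling genotypes. No array of the separate w1118 control group enters it. All were adult Drosophila melanogaster, sampled as whole bodies from pooled flies, in a w1118 background, and all were F1 sons of ablated founder males and w1118 females. The ablated males were rpr/+; dilp3/+, which combine UAS-rpr, a GAL4-dependent copy of reaper that kills the cells expressing it, with the ilp3-GAL4 driver, active in insulin-producing cells. The brothers were rpr/+; ser/+, with the cell-death gene and no driver, cyo/+; dilp3/+, with the driver and no cell-death gene, and cyo/+; ser/+, with neither. They are called below the rpr with ser, cyo with dilp3 and cyo with ser brothers. Here cyo and ser stand for the fluorescent balancer chromosomes CyO-YFP and Ser-GFP, which the founders carried opposite UAS-rpr and the driver. Every brother therefore differs from the ablated males by at least 1 whole chromosome, and loss of the cells was not measured on the arrays other than through their transcripts. The labels give no age beyond the collection of early-eclosing progeny, and they describe biological replicates without saying what a shared replicate number means.

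Insulin-producing cells are a small cluster of neurosecretory neurons in the fly brain that release insulin-like peptides into the circulation. Their ablation is known to raise circulating sugar, delay growth and alter fat and sugar storage, through reduced signalling by the insulin receptor InR and its adaptor chico and through activation of the transcription factor foxo. Balancers are multiply inverted chromosomes that carry dominant markers and prevent recovered recombination, so siblings that inherit a balancer or its partner differ at many genes along that chromosome.

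Levels are log2 array values, so that a difference of 1 is a change of 2-fold. The 12 arrays had similar distributions, with medians between 4.01 and 4.15 and 3802 to 4582 probe sets at the lowest values. Accessory gland genes were high on all of them, in keeping with the male label: the mean over 34 accessory gland genes lay between 10.8 and 11.1 in ablated males and between 10.1 and 11.1 in their brothers. Replicate 2 of the ablated males and replicate 2 of the cyo with dilp3 brothers stood apart. They correlated at 0.983 with each other and at 0.952 to 0.966 with the other 10 arrays, which correlated among themselves at 0.957 to 0.988. The mean over 19 photoreceptor genes was 5.63 and 5.45 on these arrays, and 6.69 to 8.26 on the others. Neuropeptide genes followed the same pattern, with a mean over 26 genes of 5.48 and 5.53 on these arrays and 5.87 to 6.45 on the others. Ablated replicate 2 was also the only one of the 12 arrays in its labelled batch. In whole bodies fewer cells of a type and less RNA per cell cannot be told apart. Results are given with both of these arrays left out where that changed them.

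Of 10889 entries tested, where an entry is 1 probe set per gene or an unnamed probe set, 0 were called between ablated males and the equally weighted mean of the 3 brother genotypes (limma's moderated test with replicate number as a block, Benjamini-Hochberg adjusted p under 0.05). At an unadjusted p under 0.05 there were 1145 entries, 10.5% of those tested, 573 of them higher in ablated males and 572 lower. The smallest adjusted p was 0.0866. Of all entries, 92 (0.845%) had the 3 ablated arrays beyond all 9 brother arrays, 50 above (0.459%) and 42 below (0.386%). The 95% interval of a difference had a median half-width of 0.40, or 1.32-fold, and the width varied between entries. Another choice of arrays or filter gave some calls: 13 (8 higher, 5 lower) when all 34 male arrays of the series were fitted together with the labelled batch, 2 with no filter and 1 with a stricter filter. A fit of the 12 sisters with the brothers adds residual degrees of freedom and takes the spread from both sexes. It called 36 of 12098 entries (0.298%) in brothers, 23 higher and 13 lower. Of the 10 genes of smallest p described below, 6 were among them: CG14631 (adjusted p = 0.00885), CG15539 (0.0172), BomBc3 (0.00635), CG31777 (0.0127), CG3036 (0.0172) and CG2065 (0.0408). The other 4 did not pass there, Orp8 at 0.0772, CG34054 at 0.0647, CG30371 at 0.319 and CG31468 at 0.472. These 10 genes were picked by p in the same brother arrays, and their differences were the same in both fits. Their calls there are therefore not independent of that choice. A probe set without a gene symbol was also called in that fit (-1.68 ± 0.23, adjusted p = 0.0104), as was Dup99B (0.75 ± 0.11, 0.0127). Dup99B had the same difference in the fit of brothers alone, where it did not pass (adjusted p = 0.124). A gene near the lowest values in sisters can have little spread there, which can lower its error in the shared fit. The part of this in these calls was not tested.

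The count of differences depended on which brothers were taken. Against the cyo with ser brothers, which share neither manipulated chromosome with the ablated males, 26 entries (0.239%) were called, 17 higher and 9 lower (1996 at an unadjusted p under 0.05, 18.3%). Against the rpr with ser brothers 4 (0.0367%) were called, 2 higher and 2 lower (1043, 9.58%). Against the cyo with dilp3 brothers, which share the driver chromosome, 0 were called (624, 5.73%). Non-ablated brothers also differed from one another. The cyo with dilp3 brothers differed from the cyo with ser brothers at 17 entries (0.156%) by adjusted p (1838, 16.9%), the rpr with ser from the cyo with dilp3 brothers at 5 (0.0459%) (1402, 12.9%), and the rpr with ser from the cyo with ser brothers at 0 (702, 6.45%). These comparisons share arrays and are not independent of one another.

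**Figure D1:**
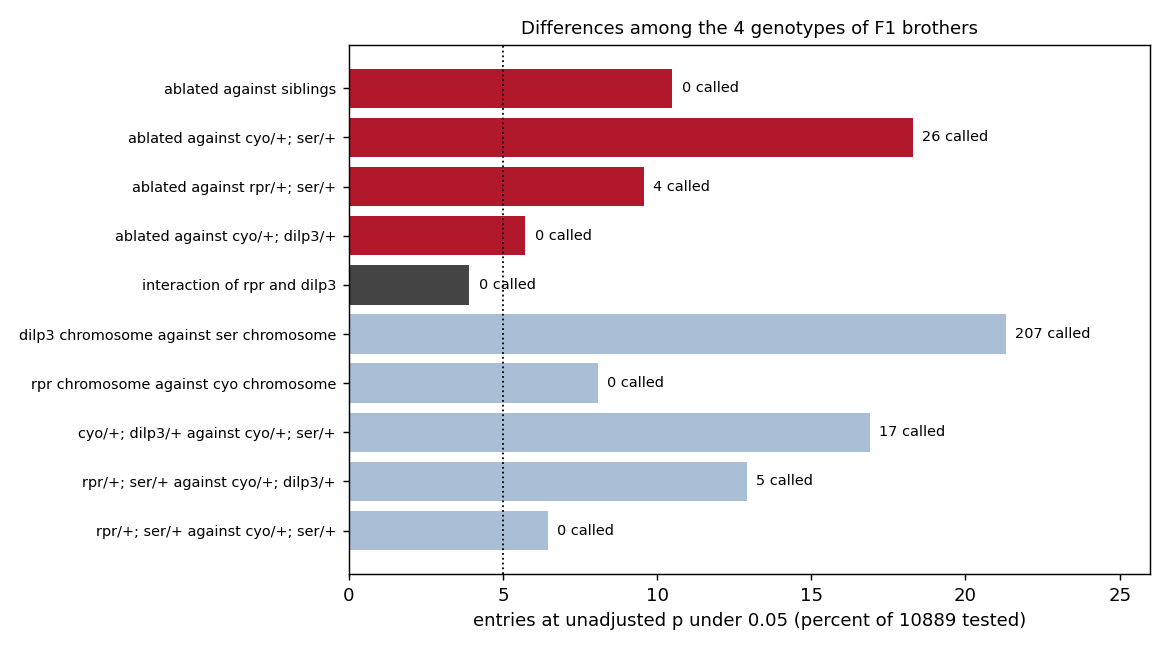
Share of the 10889 tested entries at an unadjusted p under 0.05 (horizontal axis, percent) in each comparison among the 12 F1 brothers, with the number called at adjusted p under 0.05 beside each bar and a dotted line at 5%. Red bars set ablated males against their brothers (10.5% against all, 18.3%, 9.58% and 5.73% against each genotype), the dark bar is the interaction (3.91%), and pale bars are the chromosome contrasts and the comparisons among non-ablated brothers (6.45% to 21.3%).

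The 4 genotypes form a 2-by-2 layout, so the difference can be split exactly into an average effect of the third chromosome (dilp3 against ser, 6 arrays each), an average effect of the second (rpr against cyo, 6 each) and the interaction of rpr with dilp3, weighted 0.667, 0.667 and 0.333. The interaction is the departure of the 4 genotypes from the sum of the average chromosome effects. A change confined to ablated males would be split equally over the 3 parts. The third-chromosome effect gave 207 calls (1.90%), 124 higher and 83 lower with dilp3 (2318 entries at an unadjusted p under 0.05, 21.3%). The second-chromosome effect gave 0 calls (880, 8.08%), and the interaction gave 0 calls (426, 3.91%). Among the 1145 entries at an unadjusted p under 0.05 between ablated males and brothers, the third-chromosome part was the largest of the 3 in 753, the second-chromosome part in 306 and the interaction part in 86. Because of that equal split, and because both chromosome contrasts include the ablated arrays, these counts do not separate ablation from chromosome effects. All parts come from the same 12 arrays, and the interaction has the lowest weight and the widest interval, with a median half-width of 0.69 (1.61-fold). The count of 207 was 33 without the replicate block, 8 with batch in its place, 1 with block and batch together, 3 without the pair of arrays that stood apart, and 37 to 94 with any single array left out.

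The lowest p of all belonged to a gene of the innate immune response. BomBc3 on arm 3R (RefSeq, Release 6 assembly) encodes a Bomanin, one of the short secreted peptides induced by the Toll pathway. Its level was 9.61, 9.02 and 8.97 in ablated replicates 1, 2 and 3. It was 11.46, 11.80 and 10.95 in the rpr with ser brothers, 10.47, 10.06 and 9.88 in the cyo with dilp3 brothers, and 11.34, 11.26 and 11.51 in the cyo with ser brothers. All 3 ablated arrays lay below all 9 brothers, and the brothers with the driver chromosome lay between the ablated males and the other 2 genotypes. The difference from the brothers was -1.77 ± 0.19 (limma, adjusted p = 0.0866), and it passed with the stricter filter (adjusted p = 0.0464). Against single genotypes it was -2.20 ± 0.23 from rpr with ser (adjusted p = 0.0284) and -2.17 ± 0.23 from cyo with ser (0.0172), both called, and -0.94 ± 0.23 from cyo with dilp3 (0.455), not called. Between arrays of 1 labelled batch, the difference was -1.09 in batch 1 and -1.99 in batch 3. Such within-batch values, here and below, set 1 ablated array against 4 brothers in batch 1 and 2 in batch 3, mostly of other replicate numbers, so they also hold differences between replicate numbers and have no error.

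CG34054 on 2R had the largest difference after BomBc3 among the 5 genes of smallest p on the lower side. It measured 4.501, 5.66 and 4.28 in ablated males, against 5.76, 7.35 and 5.68 in rpr with ser, 6.48, 7.03 and 6.76 in cyo with dilp3, and 6.59, 6.44 and 6.57 in cyo with ser brothers. Each ablated array lay below every brother array, the highest of them (5.66) just under the lowest brother (5.68). The difference was -1.70 ± 0.28 (adjusted p = 0.122) and did not pass, with an interaction of -1.67 ± 0.48. It was among the entries called when all male arrays were fitted together (-1.93, adjusted p = 0.0307). Its difference was -1.82 within batch 1 and -1.83 within batch 3. The other 3 genes on that side did not pass in this comparison either. CG31777 on 2L differed by -0.72 ± 0.10 and CG2065 on 2R by -0.84 ± 0.13, each with the ablated arrays below all brothers. CG3036 on 2L differed by -0.71 ± 0.11, with overlap. Within batches 1 and 3 the differences were -0.98 and -0.19 for CG31777, -0.35 and -1.11 for CG2065, and -0.07 and -1.17 for CG3036.

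The 5 genes of lowest p on the higher side had adjusted p-values of 0.109 each and did not pass in the fit of the 12 brothers. Orp8 on 3R, named for the oxysterol-binding protein family of lipid carriers, was the tightest. It measured 9.04, 9.07 and 9.16 in ablated males, against 7.89, 7.65 and 7.46 in rpr with ser, 8.89, 8.95 and 8.98 in cyo with dilp3, and 8.01, 7.72 and 7.87 in cyo with ser brothers. The ablated males stood just above the brothers that share the dilp3 chromosome and well above both groups with ser. Its third-chromosome effect of 1.25 ± 0.10 was called (adjusted p = 0.00175), whereas its difference from cyo with dilp3 was 0.15 ± 0.14. Against all brothers the difference was 0.93 ± 0.12, and it passed in the fit of all male arrays (0.94, adjusted p = 0.0307). A second probe set for this gene lay at the lowest values and was not tested.

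CG31468 and CG15539, both on 3R, also differed between the dilp3 and ser chromosomes. CG31468 measured 12.44 to 12.62 in ablated males, against 11.08 to 11.50 in rpr with ser, 12.45 to 12.71 in cyo with dilp3, and 11.03 to 11.19 in cyo with ser brothers. CG15539 averaged 6.09 ± 1.07 in ablated males, against 4.400 ± 0.61, 6.39 ± 0.66 and 4.19 ± 0.63 in the same brothers (SD, n = 3 each). For both genes the ablated arrays overlapped those of the cyo with dilp3 brothers. The within-batch difference of CG15539 was 1.53 in batch 1 and -0.37 in batch 3, where no cyo with ser array lies.

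CG14631 on X and CG30371 on 2R were higher in ablated males than the mean of every brother genotype. CG14631 measured 4.24, 5.12 and 5.16 in ablated males, against 3.43, 3.57 and 3.94 in rpr with ser, 3.04, 3.74 and 4.43 in cyo with dilp3, and 2.87, 2.81 and 3.57 in cyo with ser brothers. One cyo with dilp3 array exceeded 1 ablated array. CG30371 measured 8.89, 9.25 and 9.19 in ablated males and 7.71 to 8.70 over the 9 brothers, without overlap. Their differences were 1.35 ± 0.17 and 0.87 ± 0.12, and each had third-chromosome, second-chromosome and interaction parts that were all above 0 (0.62, 0.55 and 0.18 for CG14631 and 0.47, 0.27 and 0.12 for CG30371).

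**Figure D2:**
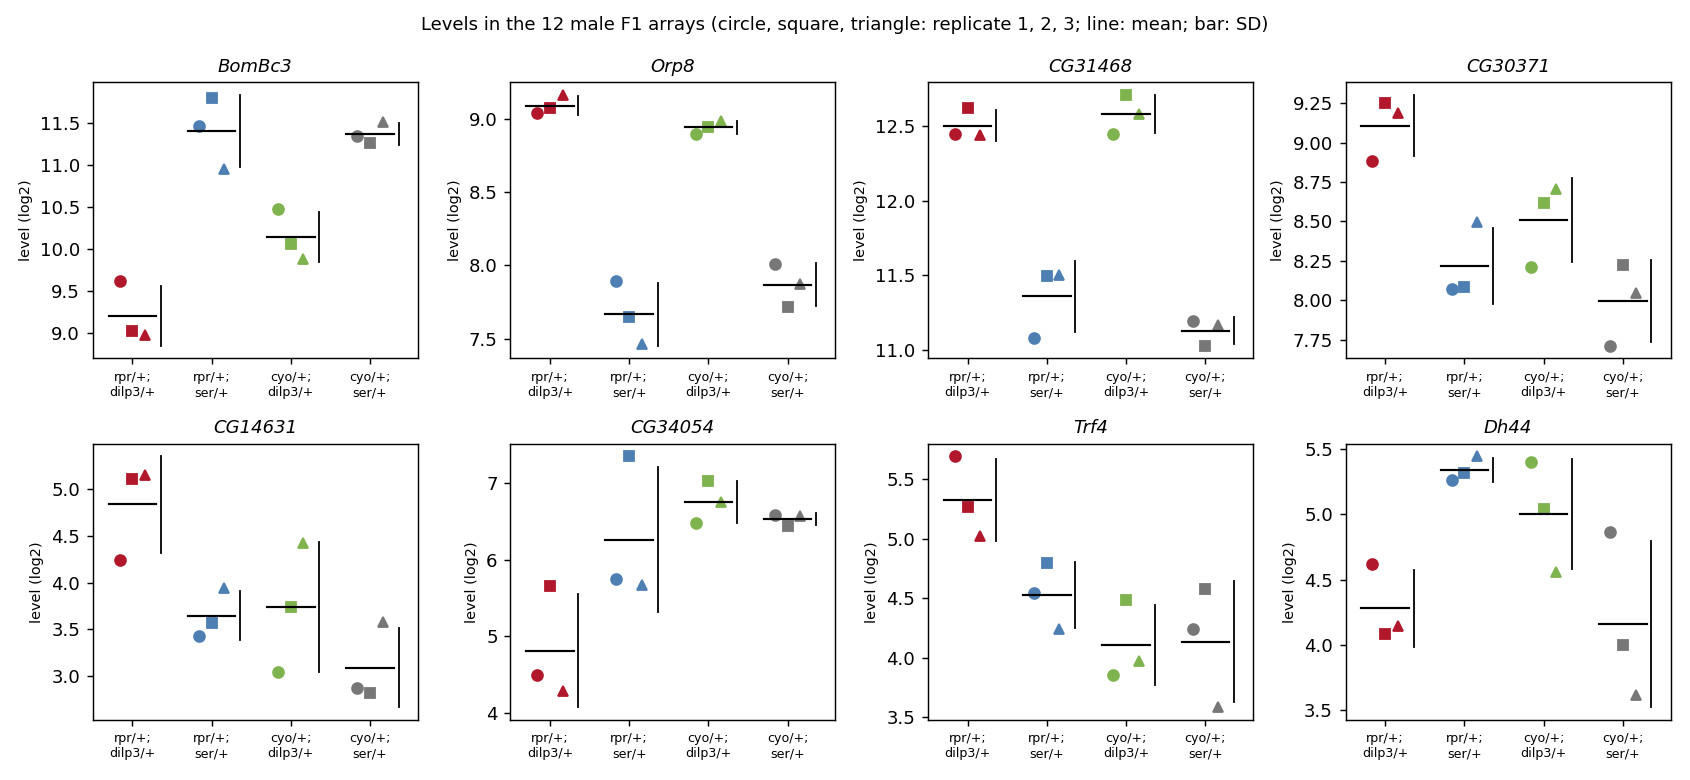
Level (log2, vertical axis) of 8 genes on each of the 12 arrays by genotype, ablated males on the left, with symbols for replicates 1 to 3, lines for means and bars for SD. BomBc3 was lowest in ablated males, Orp8 and CG31468 separated the genotypes with dilp3 from those with ser, and Dh44 was low in both the ablated males (mean 4.28) and the cyo with ser brothers (4.16).

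**Figure D3:**
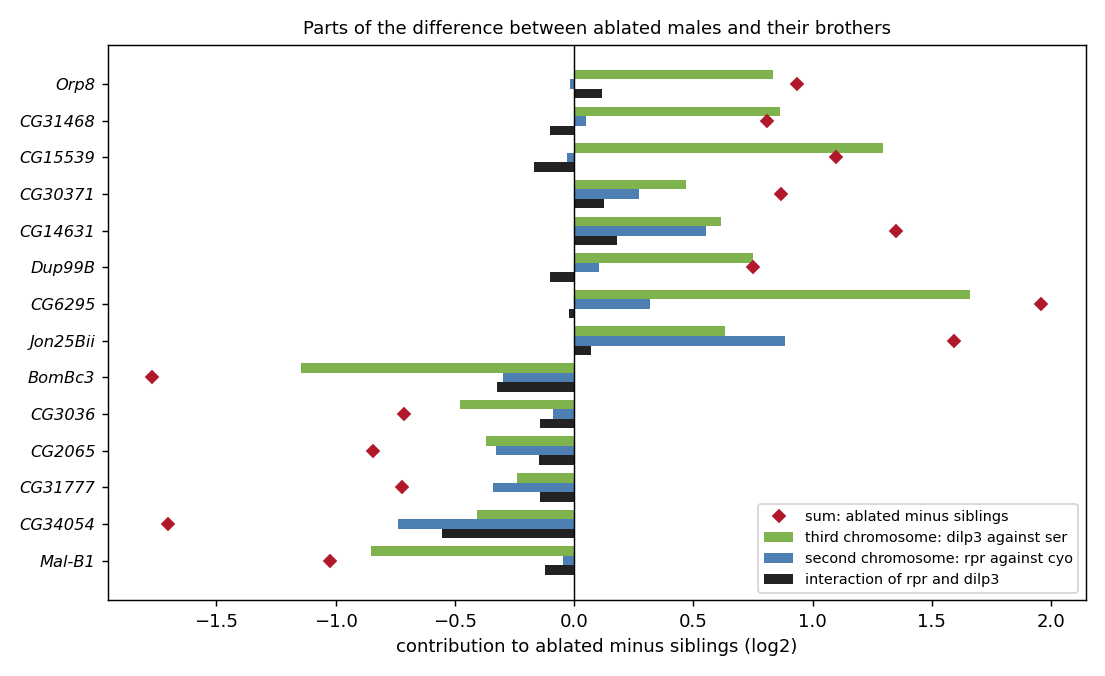
Contributions (log2, horizontal axis) of the third chromosome, the second chromosome and the interaction to the difference between ablated males and brothers for 14 genes, with diamonds at their sum. The third-chromosome bar is the longest for Orp8 (0.83 of 0.93) and BomBc3 (-1.14 of -1.77), and the second-chromosome bar for Jon25Bii (0.89 of 1.59) and CG34054 (-0.74 of -1.70). A change confined to ablated males would be divided equally among these bars.

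The 26 entries called against the cyo with ser brothers ranged from 0.87 to 3.14 in size. By position 17 lay on the third chromosome, 6 on the second and 1 on X, and 2 were probe sets of several genes. Of the 10889 entries tested, 1804 lay on 3L, 2360 on 3R, 1801 on 2L, 1937 on 2R and 1487 on X. The 3 of smallest p on the higher side were CG15539 (1.90 ± 0.19), CG31468 (1.37 ± 0.14) and CG32086 on 3L (1.46 ± 0.15). On the lower side they were BomBc3, sowah on 3L (-1.51 ± 0.18) and Map205 on 3R, which encodes a microtubule-associated protein (-1.22 ± 0.16). Map205 measured 9.68, 10.03 and 9.77 in ablated males and 10.99, 11.23 and 10.92 in cyo with ser brothers, while the cyo with dilp3 brothers, at 9.87, 10.10 and 9.24, overlapped the ablated males. These 26 calls became 9 without the replicate block and 0 with batch in the fit. They became 0 without ablated replicate 1 or 2, cyo with dilp3 replicate 2 or cyo with ser replicate 1, 1 without ablated replicate 3, 7, 10, 13 and 17 without cyo with dilp3 replicates 1 and 3, rpr with ser replicate 3 and cyo with ser replicate 3, and 32 to 39 without any other array.

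The 4 entries called against the rpr with ser brothers were Orp8 (1.42 ± 0.14), CG15539 (1.69 ± 0.19), BomBc3 and 1 probe set of several genes (-1.28 ± 0.13). The next on each side, which did not pass, were CG31468 (1.14 ± 0.14, adjusted p = 0.0623), CG3036 (-0.94 ± 0.13, 0.0755) and the maltase gene Mal-B1 (-1.46 ± 0.22, 0.0855). These calls numbered 2 without the block and 0 with batch. With single arrays left out they numbered 1 without ablated replicate 3, 3 without cyo with ser replicate 3, and 0 without each of the other 10 arrays.

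Against the cyo with dilp3 brothers, which differ from the ablated males in the second chromosome alone, the genes of smallest p lay on that chromosome. None passed (adjusted p = 0.455 for each of the 6). Trf4 on 2L, encoding a non-canonical poly(A) polymerase, measured 5.69, 5.26 and 5.02 in ablated males and 3.86, 4.49 and 3.97 in cyo with dilp3 brothers. The rpr with ser brothers, at 4.55, 4.80 and 4.24, also lay below every ablated array. CG31674 on 2L behaved alike, at 5.40 to 6.07 in ablated males, 4.89 to 5.04 in rpr with ser and 4.02 to 4.54 in cyo with dilp3 brothers. For CG5783 on 2L and CG5770 on 2R the second-chromosome part was instead the largest (0.62 and -1.15). CG5770 also had a third-chromosome part of 0.51 and an interaction part of -0.32, so it did not follow the second chromosome alone. CG5783 averaged 7.002 ± 0.31 in ablated males and 5.99 ± 0.33 in cyo with dilp3, with 7.07 ± 0.07 in rpr with ser brothers. CG5770 averaged 2.95 ± 0.39 in ablated males and 5.17 ± 0.51 in cyo with dilp3, with 2.66 ± 0.09 in rpr with ser brothers (SD, n = 3 each). CG31777 and CG34054, described above, were the other genes of smallest p. The count of 0 became 8 when cyo with ser replicate 2 was left out.

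The share of differing genes varied by chromosome arm. Against the cyo with dilp3 brothers, 9.38% of entries on 2L and 8.83% on 2R had an unadjusted p under 0.05, and 3.88%, 3.90% and 3.83% on 3L, 3R and X. Against the rpr with ser brothers, which differ in the third chromosome, the shares were 7.74% on 2R, 11.8% on 3L, 12.9% on 3R and 5.99% on X. On 2L, which these brothers share with the ablated males, 181 of 1801 entries were at that level, a share between those of 2R and 3L. Pooled over all brothers the shares were 13.7% on 2L, 12.3% on 3L, 11.7% on 3R and 5.51% on X, with 200 of 1937 entries on 2R. The interaction gave 3.77% to 4.61% on these 5 arms. Arms are given as a description, with no test.

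**Figure D4:**
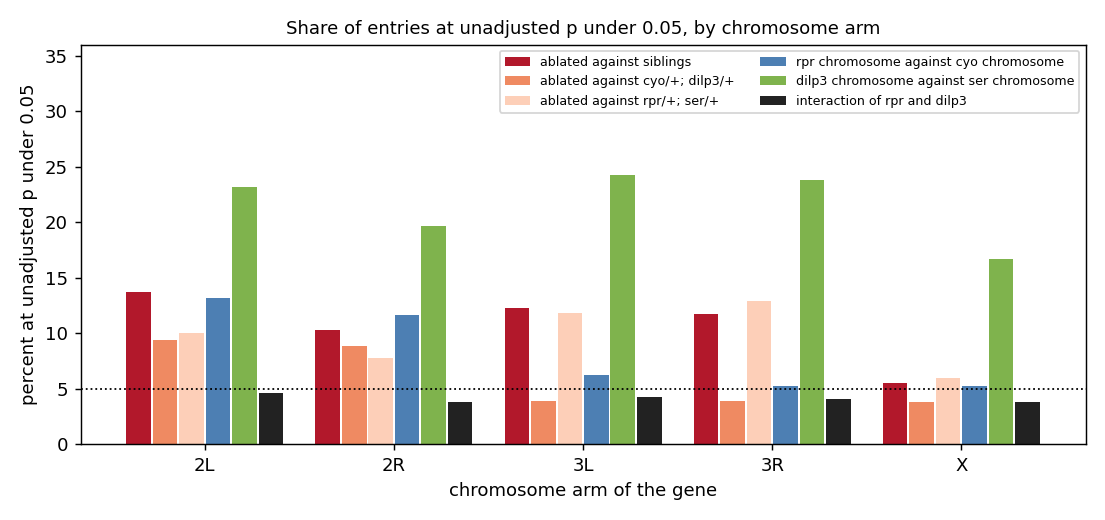
Share of entries at an unadjusted p under 0.05 (percent, vertical axis) by chromosome arm (horizontal axis) for 6 comparisons, with a dotted line at 5%. The second-chromosome contrast stands highest on 2L (13.2%) and 2R (11.6%), the third-chromosome contrast is 16.7% or more on all 5 arms shown, and the interaction lies between 3.77% and 4.61%.

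The interaction asks whether flies with both constructs differ from what the chromosomes add up to, and none of its 10889 entries passed (smallest adjusted p = 0.9996, also 0 in every alternative fit). The 3 of smallest p on the lower side included Dh44 on 3R, which encodes diuretic hormone 44, a neuropeptide made by neurosecretory cells near the insulin-producing cells. Dh44 measured 4.62, 4.08 and 4.14 in ablated males, against 5.26, 5.31 and 5.44 in rpr with ser, 5.40, 5.04 and 4.56 in cyo with dilp3, and 4.86, 4.00 and 3.62 in cyo with ser brothers. Ablated males were thus close to the brothers with neither construct and mostly below those with one. The interaction was -1.90 ± 0.34, and -1.78 with both arrays that stood apart left out. Neuropeptide genes as a list were low on those arrays, and their part in this value was not tested. The other two on this side were robl37BC on 2L, a dynein light chain of the roadblock family (-1.08 ± 0.18), and CG32086 (-1.14 ± 0.21). On the higher side they were CycH on 3L, cyclin H of the kinase that activates cyclin-dependent kinases (1.70 ± 0.32), Elp3 on 2L, the catalytic subunit of Elongator (2.10 ± 0.40), and CG17751 on 3R (1.60 ± 0.35).

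Genes of insulin and TOR signalling were not called in the comparisons of ablated males with their brothers, in the chromosome contrasts or in the interaction. Ilp2, an insulin-like peptide of the targeted cells, measured 3.43, 2.75 and 2.79 in ablated males. It measured 4.04, 3.38 and 3.18 in rpr with ser, 3.50, 2.234 and 2.79 in cyo with dilp3, and 3.44, 2.45 and 3.04 in cyo with ser brothers. The lowest array was a non-ablated one, at the lowest values of the scale, and is 1 of the 2 that stood apart. The difference was -0.13 ± 0.15 (95% interval -0.46 to 0.21, adjusted p = 0.819). The median over the brothers was 3.18, already near the lowest values of the scale, so a loss in ablated males could show little difference. The interval therefore does not show that Ilp2 was unchanged. Ilp5, Ilp7 and Ilp8 did not pass the filter. Ilp5, made by the same cells, lay at 2.35 to 2.54 in ablated males and 2.35 to 2.47 in their brothers. InR measured 9.09, 9.39 and 8.57 in ablated males, against 9.94, 9.41 and 8.04 in rpr with ser, 9.07, 9.73 and 8.74 in cyo with dilp3, and 10.18, 10.17 and 9.04 in cyo with ser brothers, with overlap. It differed by -0.35 ± 0.22, ImpL2, a secreted binding protein of insulin-like peptides, by -0.27 ± 0.19, foxo by 0.07 ± 0.12 and chico by -0.04 ± 0.19.

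Among 15 tested genes of insulin and TOR signalling the median difference was -0.09, and among 13 target genes of foxo it was -0.03, beside -0.01 over all entries. At an unadjusted p under 0.05 these lists had 1 and 0 members, where 10.5% of all entries were at that level. The mean over the foxo targets was 8.70 to 9.13 in ablated males and 8.51 to 9.24 in brothers. The glucosidase gene tobi, in that list and picked after its values were seen, measured 11.52 ± 0.14 in ablated males, against 12.40 ± 0.39 in rpr with ser, 11.01 ± 0.05 in cyo with dilp3 and 12.25 ± 0.28 in cyo with ser brothers. Its difference from the brothers was -0.37 ± 0.17, and its third-chromosome effect of -1.06 was called (adjusted p = 0.0231). Genes of glycolysis (15) and of glycogen, trehalose and gluconeogenesis (14) had 0 members at an unadjusted p under 0.05 and medians of -0.04 and 0.05. Of 28 genes of fat storage and the adipokinetic hormone 4 were higher and 2 lower at that level (of all entries, 5.26% and 5.25%), with a median of 0.04.

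Immune genes were the list with the lowest median. Of 33 tested, 0 were called. At an unadjusted p under 0.05, 16 were lower and 1 higher, and the median difference was -0.44, where 5.25% of all entries were lower at that level. Apart from BomBc3, the immune, hemocyte and digestive genes named as list examples below were picked after their values were seen, except Jon25Bii, Mal-B1 and CG6295. BomT3 averaged 9.34 ± 0.35 in ablated males, against 10.81 ± 0.64 in rpr with ser, 9.80 ± 0.38 in cyo with dilp3 and 10.70 ± 0.45 in cyo with ser brothers. Mtk, the antifungal peptide metchnikowin, averaged 10.15 ± 1.32, against 11.41 ± 1.42, 11.73 ± 0.52 and 12.31 ± 0.40 in the same brothers. BomT2, BomS2 and IM33 had all ablated arrays below all brothers, while Drsl5 was higher, by 0.54 ± 0.18. Diptericin B and drosomycin spread widely, at differences of -1.25 ± 0.61 for DptB and -1.01 ± 0.54 for Drs.

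Markers of hemocytes, the blood cells of the fly, differed in the same direction. All 15 tested had a difference below 0, with a median of -0.43, where 48.2% of all entries had a difference above 0. At an unadjusted p under 0.05, 8 were lower, where 5.25% of all entries were, and 0 were called. NimC1, a phagocytosis receptor of plasmatocytes, averaged 5.10 ± 1.01 in ablated males, against 6.33 ± 0.93, 5.996 ± 0.91 and 6.44 ± 0.26 in rpr with ser, cyo with dilp3 and cyo with ser brothers. Hml, encoding hemolectin, averaged 7.22 ± 0.59, against 7.99 ± 0.34, 7.33 ± 0.57 and 7.68 ± 0.10. The mean over the 15 markers was 7.70, 7.21 and 7.08 in ablated males and 7.30 to 8.24 over their brothers, and the cyo with dilp3 brothers, at 7.77, 7.30 and 7.31, were nearly as low. The median difference from those brothers was -0.12, against -0.60 from rpr with ser and -0.58 from cyo with ser. The part of these markers in the lower immune levels was not tested. Without the arrays that stood apart 4 hemocyte genes and 18 immune genes were lower at an unadjusted p under 0.05, and with batch added 2 and 15. Within batch 1, for its single ablated array, the mean over the immune list differed by -0.20 and over hemocyte markers by 0.05, and within batch 3 by -1.42 and -0.82.

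Digestive enzymes were on the other side. Of 23 gut proteases tested, 11 were higher and 0 lower at an unadjusted p under 0.05, where 5.26% of all entries were higher, and 0 were called. The median of 0.62 was the highest of the 32 lists with 2 or more members tested. Jon25Bii on 2L, a midgut serine protease of the Jonah family, measured 8.84, 7.57 and 10.02 in ablated males. It measured 7.49, 7.07 and 8.70 in rpr with ser, 7.26, 6.199 and 8.66 in cyo with dilp3, and 5.88, 5.24 and 8.47 in cyo with ser brothers. The groups overlapped because the replicates differed widely, but in each replicate number the ablated array was the highest of the 4. The difference was 1.59 ± 0.25 (adjusted p = 0.122). Jon74E averaged 11.63 ± 0.37, against 10.65 ± 0.50, 10.62 ± 0.60 and 10.38 ± 0.53 in rpr with ser, cyo with dilp3 and cyo with ser brothers, with no overlap. The median difference of the list was 0.55, 0.48 and 0.68 from the same brothers taken singly, so this list stood higher than each of them. Within batches 1 and 3 the mean over the list differed by 0.56 and 0.74.

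Maltases and amylases, which split dietary sugars and starch, were mixed. Of 12 tested, 7 were higher and 1 lower at an unadjusted p under 0.05 (of all entries, 5.26% and 5.25%), and 0 were called. Mal-B1 on 2L was the lower one, at 8.79, 8.60 and 6.87 in ablated males, against 10.47, 10.01 and 8.16 in rpr with ser, 8.995, 9.01 and 7.03 in cyo with dilp3, and 10.25, 9.45 and 8.61 in cyo with ser brothers. Within each replicate number it was lowest in ablated males, next in cyo with dilp3 and higher with ser, and its third-chromosome effect of -1.28 was called (adjusted p = 0.0106). Mal-A3 averaged 9.85 ± 0.04 in ablated males, against 9.104 ± 0.43, 9.09 ± 0.24 and 8.52 ± 0.67, and Amyrel, an amylase-related gene, 5.74 ± 0.56, against 5.35 ± 0.20, 4.65 ± 0.54 and 4.52 ± 0.31. Without the arrays that stood apart 3 were higher and 1 lower. Of 10 gut lipases 1, CG6295 on 3R, was higher at that level, by 1.96 ± 0.36 (adjusted p = 0.1499). It averaged 10.58 ± 1.00 in ablated males, against 8.12 ± 1.13, 10.13 ± 0.94 and 7.61 ± 1.62.

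Male reproductive genes differed mainly from the brothers with ser. Of 34 genes of the accessory gland and ejaculatory duct, 11 were higher and 1 lower at an unadjusted p under 0.05 (of all entries, 5.26% and 5.25%). Their median was 0.30 and 0 were called. Dup99B on 3R, which encodes the ejaculatory duct peptide related to sex peptide, averaged 12.49 ± 0.16 in ablated males, against 11.52 ± 0.10 in rpr with ser, 12.49 ± 0.09 in cyo with dilp3 and 11.21 ± 0.31 in cyo with ser brothers. Ablated males and cyo with dilp3 brothers thus had the same mean, and the difference from all brothers was 0.75 ± 0.13 (adjusted p = 0.124). The list's median difference was 0.00 from cyo with dilp3, 0.33 from rpr with ser and 0.43 from cyo with ser brothers. Of 35 testis genes 3 were higher, with a median of 0.14. Their third-chromosome effect was above 0 with an unadjusted p under 0.05 in 19, where 11.4% of all entries were, and 1 was called.

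**Figure D5:**
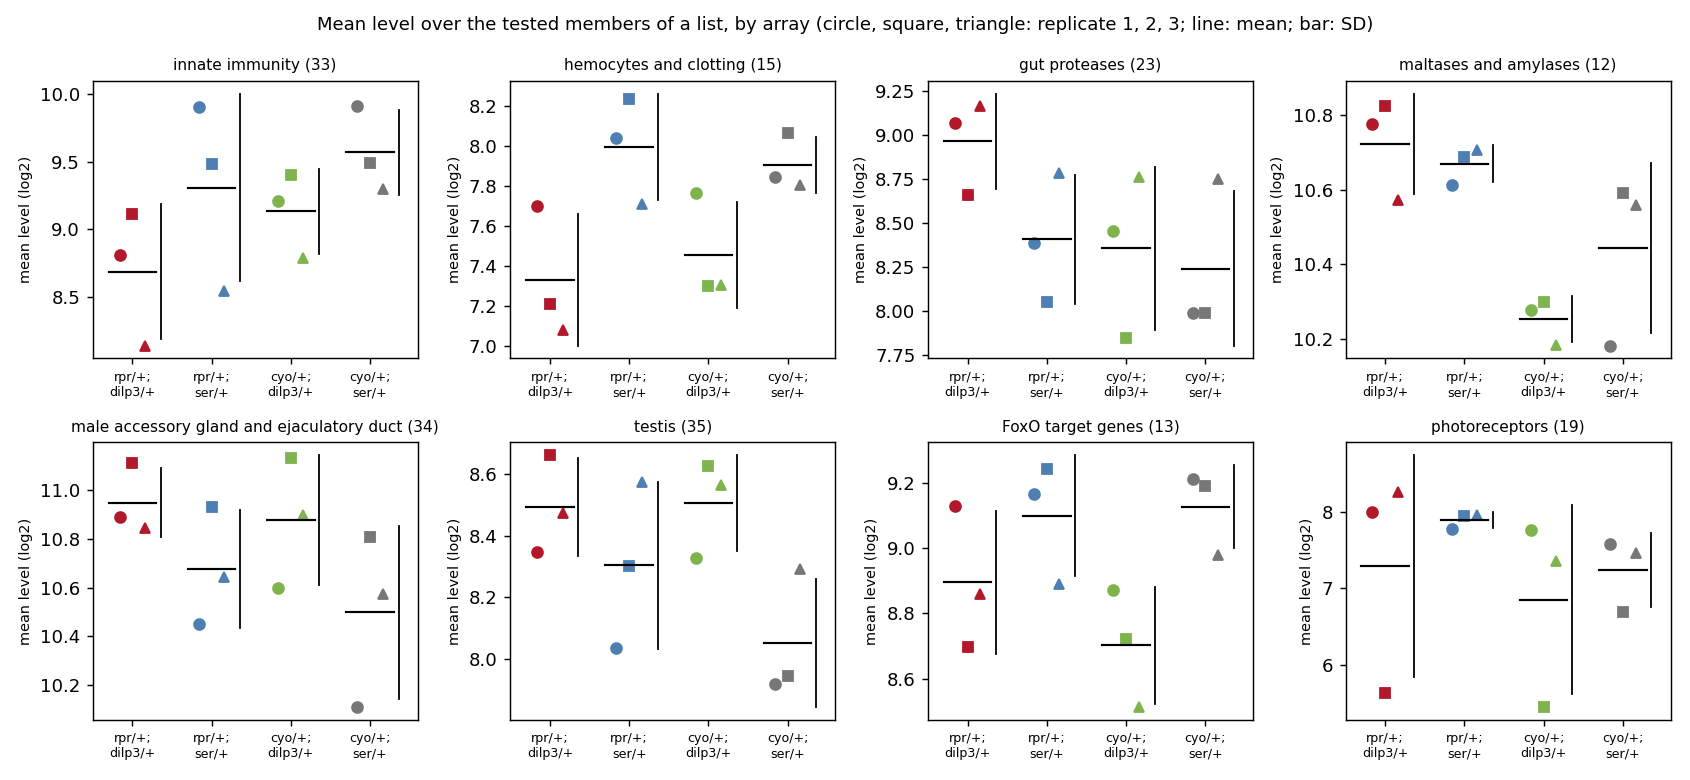
Mean level (log2, vertical axis) over the tested members of 8 gene lists on each of the 12 arrays by genotype, ablated males on the left, with symbols for replicates 1 to 3, lines for means and bars for SD. Gut protease means were 8.66 to 9.16 in ablated males and 7.85 to 8.78 in brothers, and photoreceptor genes were at 5.63 and 5.45 on the pair of arrays that stood apart.

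The remaining lists had no called member, and their medians were mostly near 0. Of the 32 lists with 2 or more members tested, 27 had a median within 0.2 of 0, and none of all 34 lists had a called member. Of 71 cytochrome P450 genes 8 were higher and 10 lower at an unadjusted p under 0.05, where 10.5% of all entries were at that level in either direction, with Cyp6a2 on 2R having the smallest p (-0.92 ± 0.19, adjusted p = 0.175). Of 40 ecdysteroid kinase-like genes 11 were higher and 5 lower, led by CG6908 on 3R. CG6908 averaged 9.13 ± 0.22 in ablated males, against 7.997 ± 0.49, 8.86 ± 0.36 and 7.63 ± 0.23 in rpr with ser, cyo with dilp3 and cyo with ser brothers. Obp56d on 2R, an odorant-binding protein, had the smallest p of 25 such genes (-0.92 ± 0.20, adjusted p = 0.175) and did not pass. Of 13 cell-death genes 0 were higher and 1 was lower at that level, and of 10 heat shock genes, 41 cytosolic ribosomal protein genes and 20 flight muscle genes none passed it.

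Brothers and their sisters of the same 4 genotypes were compared in 1 fit of 24 arrays. The difference between ablated and non-ablated siblings itself differed between brothers and sisters at 3 of 12098 entries (0.0248%), 1 with a positive and 2 with a negative value of brothers minus sisters. CG13032 on 3L measured 9.01, 9.15 and 8.81 in ablated brothers and 8.55 to 9.42 in the other brothers. It measured 6.51, 5.70 and 6.12 in ablated sisters, 2.38 to 2.503 in rpr with ser, 4.70 to 6.45 in cyo with dilp3 and 2.72 to 3.17 in cyo with ser sisters. The brothers' difference was 0.02 ± 0.22 and the sisters' 2.44 ± 0.22, and in sisters the level separated the genotypes with dilp3 from those with ser. The sisters with ser lay near the lowest values of the scale, so their side holds only a bound. CG43074 on 3L showed the same split in sisters. It lay at 2.43 to 2.86 on 11 of the 12 brother arrays and at 3.80 on the other, near the level of the filter (2.61), so a difference among brothers could not be measured. CG14631, high in ablated brothers, measured 2.49 to 2.69 in ablated sisters and 2.33 to 3.33 in the other sisters. These levels are near the filter, so the sisters' side could show little difference, and the value between the sexes did not pass (adjusted p = 0.111). A probe set without a gene symbol also did not pass, at -2.02 ± 0.33 (adjusted p = 0.059). It measured 4.32, 3.76 and 3.84 in ablated brothers and 4.47 to 6.50 in the other brothers, and 9.81 to 10.37 in ablated sisters and 9.01 to 10.60 in the other sisters.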

How the data were processed

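Whole-body RNA of adult flies was measured on Affymetrix 3' IVT arrays. The deposited values are log2 levels per probe set, made by the authors with GCRMA, per the submitters' processing notes, which also name limma 3.46.0 without its role. Of 18952 probe sets, 183 controls were left out. Of the rest, 13647 had 1 gene symbol, 402 several and 4720 none in the platform annotation, and 13544 matched RefSeq genes. The probe set with the highest mean represented each gene. Entries above the 40th percentile (2.63) in at least 3 arrays were tested with limma 3.58.1 in R 4.3.3, with 4 genotype means and replicate number as a block, because the comparison is matched by replicate number (6 residual degrees of freedom). Differences are given ± standard error, levels as mean ± SD.

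Members, gene lists and tests were chosen with earlier results of these data known. The chromosome contrasts, the comparisons among non-ablated brothers, the fit without both arrays that stood apart and the brothers' values from the fit of both sexes were added after the data were seen. Named genes are Ilp2, Ilp5, Ilp7, InR, foxo, chico and ImpL2, the smallest p-values in each direction (5 for ablated males against brothers, 3 for the interaction and each genotype, 5 in all for the sexes) and the smallest p of 8 lists. Scripts were tested on simulated data. The design text describes biological replicates. The p-values rest on the spread between arrays left after genotype and replicate number are fitted, moderated across entries. The number of arrays limits the precision. Arms come from RefSeq Release 6. Figures used matplotlib 3.10.9.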

Additional observations from a re-analysis of the deposited data

Results flagged for a closer look

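At 3 entries the difference between ablated and non-ablated siblings was not the same in brothers and sisters by the interaction test (limma, adjusted p under 0.05). The largest was a probe set without a gene symbol, with brothers minus sisters at 5.02 ± 0.53 (adjusted p = 0.0011). It measured 5.40, 7.22 and 6.01 in ablated, 5.50 to 6.63 in rpr with ser, 7.69 to 9.24 in cyo with dilp3 and 6.76 to 7.89 in cyo with ser brothers. The ablated brothers thus overlapped the rpr with ser brothers. In ablated sisters it measured 3.58, 5.52 and 2.94, and in the other sisters 9.09 to 11.17. CG13032 differed by -2.42 ± 0.31 (adjusted p = 0.00613) and CG43074 by -2.997 ± 0.45 (0.026). CG43074 was near the filter level of 2.61 on 11 of 12 brother arrays, and CG13032 lay at 2.38 to 3.17 in the sisters with ser, so neither value measures a difference between the sexes exactly. With the labelled batch in the fit 0 entries passed, and without ablated sister replicate 1 only 1 did. Without ablated sister replicates 2 or 3, rpr with ser brother replicate 1 or rpr with ser sister replicate 3 the counts were 6, 14, 5 and 7. Groups of 3 arrays were not searched for single outlying values.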

How the results depend on the processing

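The interaction had 0 calls in every fit run. For ablated males against all brothers the count of 0 became 13 with all male arrays and batch, 2 with no filter and 1 with the 60th percentile filter, and 0 to 1 without single arrays. Against rpr with ser the 4 calls became 2 with no replicate block, 0 with batch in its place, 0 with both, 20 with all male arrays, 10 with no filter, 18 with the 60th percentile filter, 14 with quantile normalization, 1 without both arrays that stood apart and 0 to 3 without single arrays. Against cyo with ser the 26 became 9 with no replicate block, 0 with batch, 0 with both, 40 with all male arrays, 82 with the 60th percentile filter, 52 with quantile normalization, 1 without both arrays and 0 to 39 without single arrays. Against cyo with dilp3 the range without single arrays was 0 to 8. For brothers minus sisters the 3 became 0 with batch, 0 with both, 5 with no filter and 1 to 14 without single arrays. The 36 calls in brothers came from the same fit, and their counts in these alternatives are not given here. The 207 of the third-chromosome contrast became 33 with no replicate block, 8 with batch, 1 with both, 105 with all male arrays, 62 with no filter, 3 without both arrays and 37 to 94 without single arrays. The second-chromosome count of 0 became 26 with all male arrays, 1 without both arrays and 0 to 32 without single arrays. The cause of these changes was not tested. Leaving out arrays or adding terms leaves fewer residual degrees of freedom. Of 51 named results, chico alone changed sign, from -0.04 to between -0.19 and 0.11 without single arrays. After the mean of each genotype was subtracted, arrays of the same number deviated together in 17 of 18 pairs (correlation over 0.1, lowest 0.066). In these deviations all 12 correlated best with an array of their own number, a hint from the data and not from the labels. In levels cyo with ser replicate 3 instead correlated best with cyo with dilp3 replicate 1 (0.980, against 0.979 with rpr with ser replicate 3). No promoter sequences were used here, so the planned motif count was not run.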
